A study of Mus musculus with 9 samples.

Results

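Mast cells and neutrophils are granule-bearing immune cells, and the 10 genes described here are transcripts by which they are recognised in mouse tissue. The 6 mast cell markers were Mcpt4, Cma1, Cpa3, Tpsb2, Kit and Ms4a2, and the 4 neutrophil markers were S100a8, S100a9, Retnlg and Csf3r. They were taken by name from a table of 33293 Ensembl gene identifiers, and all 10 were found. RNA was sequenced from the aorta of males that were 7 to 8 weeks old and ate normal chow, in 5 libraries from wild-type C57BL/6J mice (WT) and 4 from Apoe-knockout mice (Apoe_KO). The labels give no background strain for the knockout and do not say whether each library is a separate animal, so p-values measure the spread between these libraries, which may be in part technical. Apoe encodes apolipoprotein E, a ligand for lipoprotein clearance by the liver, and mice without it develop high plasma cholesterol and atherosclerosis.

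Mast cells mature in tissues under stem cell factor, whose receptor is the tyrosine kinase encoded by Kit. They store proteases in heparin-rich granules and release them when IgE bound to the high-affinity receptor, whose beta chain is the product of Ms4a2, is crosslinked by antigen. In the mouse, connective tissue mast cells hold the chymases Mcpt4 and Cma1, the carboxypeptidase Cpa3 and the tryptase Tpsb2, and in the artery wall they lie mainly in the adventitia and around it. Neutrophils are made in the bone marrow under granulocyte colony-stimulating factor, whose receptor is encoded by Csf3r, and circulate in blood. Their cytosol is rich in calprotectin, the calcium-binding heterodimer of S100a8 and S100a9, and Retnlg encodes a resistin-like secreted protein of mature neutrophils.

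The chymase and carboxypeptidase genes are shown first by the 250 bases before their start, because their transcripts rose and fell together over the libraries. Sequences are from RefSeq on GRCm38.p6, 5′ to 3′ on the strand of the gene, and capitals mark GATAA or GATAG, each after an A or a T, on either strand. GATA factors, among them the mast cell regulator Gata2, are known to bind such letters. The windows are chr14:56062311-56062560 for Mcpt4, chr14:55944676-55944925 for Cma1 and chr3:20242182-20242431 for Cpa3, all on the minus strand.
Mcpt4: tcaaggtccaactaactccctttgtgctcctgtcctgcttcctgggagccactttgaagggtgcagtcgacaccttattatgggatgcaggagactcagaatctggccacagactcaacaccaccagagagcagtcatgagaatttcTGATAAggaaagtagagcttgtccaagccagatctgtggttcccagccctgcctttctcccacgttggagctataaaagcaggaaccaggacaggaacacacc
Cma1: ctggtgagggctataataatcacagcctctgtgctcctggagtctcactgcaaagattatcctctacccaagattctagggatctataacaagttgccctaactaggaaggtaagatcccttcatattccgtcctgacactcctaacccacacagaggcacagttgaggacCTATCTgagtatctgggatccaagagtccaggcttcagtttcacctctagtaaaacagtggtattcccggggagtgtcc
Cpa3: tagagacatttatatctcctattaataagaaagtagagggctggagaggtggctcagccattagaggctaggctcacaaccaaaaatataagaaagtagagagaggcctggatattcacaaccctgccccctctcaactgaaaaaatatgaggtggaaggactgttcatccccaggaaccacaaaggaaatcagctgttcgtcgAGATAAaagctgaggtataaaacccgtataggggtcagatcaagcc
Each window held 1 match, which began 103 bases before the start of Mcpt4, 79 before that of Cma1 and 46 before that of Cpa3. Ms4a2 held 3 matches and Kit none, so that 4 of the 5 mast cell markers with a sequence carried the letters, and no sequence was used for Tpsb2. Of all 32851 promoter windows of this length, 26.5% held a match, as did 2 of the 4 neutrophil windows, S100a9 and Retnlg.

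S100a8 and S100a9 lie next to each other on chromosome 3 in opposite orientation, and their windows are shown because the pair is read as 1 protein complex. Capitals mark TTGCNNAA on either strand, letters that C/EBP factors, which direct granulocyte development, are known to bind. The windows are chr3:90668821-90669070 on the plus strand for S100a8 and chr3:90695722-90695971 on the minus strand for S100a9.
S100a8: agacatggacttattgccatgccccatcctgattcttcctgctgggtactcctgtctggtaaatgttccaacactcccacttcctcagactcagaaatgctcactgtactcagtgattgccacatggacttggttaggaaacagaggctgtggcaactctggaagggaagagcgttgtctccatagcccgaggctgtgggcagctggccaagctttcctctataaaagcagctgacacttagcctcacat
S100a9: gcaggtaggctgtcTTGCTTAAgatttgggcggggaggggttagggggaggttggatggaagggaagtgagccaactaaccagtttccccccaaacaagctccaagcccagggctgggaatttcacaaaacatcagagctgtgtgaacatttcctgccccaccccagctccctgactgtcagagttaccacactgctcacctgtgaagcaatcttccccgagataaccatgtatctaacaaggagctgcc
The S100a9 window held 1 match, 236 bases before the start, and the S100a8 window held none. Retnlg also held 1 match and Csf3r none, against 9.56% of all 32851 windows. These matches are descriptions of letters, and binding was not measured.

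Depth was similar across libraries, at 17002983 to 19765430 reads in a library, as recovered from the deposited FPKM, a read density normalised for exon length and depth. In the low range up to 50 reads, 97.6% to 97.9% of the values in a library were whole reads within a tolerance of 0.1 read. Apoe, the gene that checks the labels, was at 513 to 643 FPKM in WT and 5.64 to 6.55 FPKM in Apoe_KO. Libraries WT 2 and Apoe_KO 4 stood apart by lymphocyte transcripts: Cd79a, a B cell receptor subunit, was at 54.2 and 65.1 FPKM there and at most 2.78 FPKM in the other 7 libraries. Genotype differences were tested with limma on log2(FPKM + 1) in the 13383 genes that reached 1 FPKM in at least 4 libraries, with Benjamini-Hochberg adjustment over all of them and a threshold of 0.05. On this scale the change of a low gene is understated.

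None of the 10 markers passed the test for a difference between the genotypes. Of the 6 that entered the fit, 0 passed the threshold, where 7.35% of all tested genes did, 3.43% higher and 3.92% lower in Apoe_KO. The other 4, Ms4a2, S100a8, Retnlg and Csf3r, reached 1 FPKM in too few libraries and were read from a limma fit with no filter, where 1.46% of 30432 genes passed and again 0 of these 4. None of the 10 had an unadjusted p under 0.05, and voom, limma's test for counts, on the recovered reads also called 0. The WT and Apoe_KO libraries overlapped for all 10 markers, while they did not overlap for 9.86% of the 19960 genes with at least 0.1 FPKM in 4 libraries. The median log2 fold change of the 6 was 0.01, and that of all tested genes was -0.07.

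**Figure D1:**
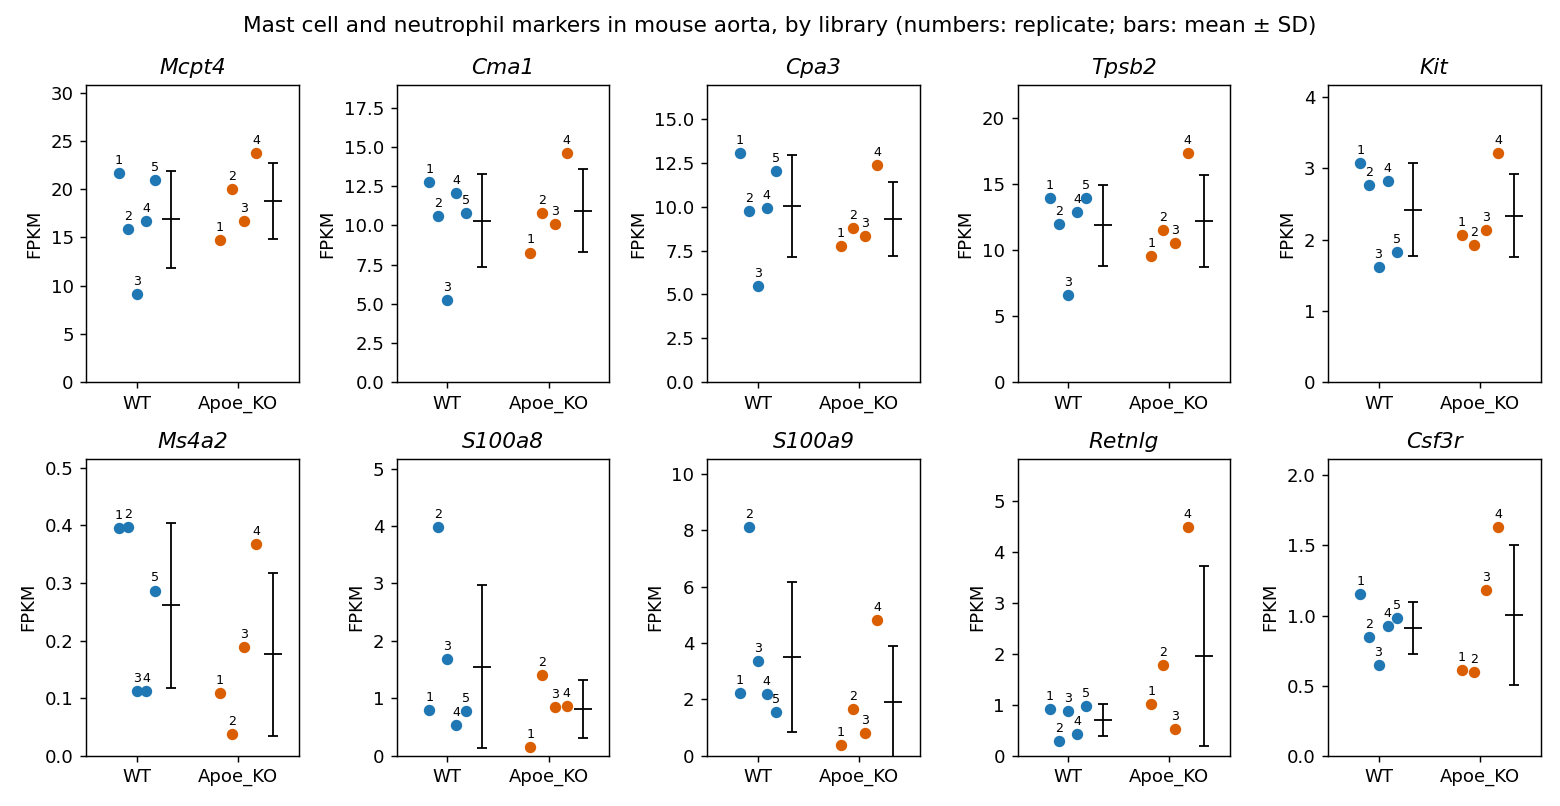
FPKM of each of the 10 markers in the 5 WT (blue) and 4 Apoe_KO (orange) libraries, numbered by replicate, with the group mean ± SD as a black bar (a bar that would reach below 0 ends at the axis). The groups overlap in every panel; WT 3 is the lowest library for 5 mast cell markers, and WT 2 is the highest for S100a8 and S100a9.

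Mcpt4, the major chymase of connective tissue mast cells, was the most abundant marker. Its level was 21.7, 15.9, 9.10, 16.7 and 20.9 FPKM in WT 1 to 5 and 14.7, 20.03, 16.7 and 23.7 FPKM in Apoe_KO 1 to 4. WT 3 was the lowest library, Apoe_KO 4 the highest, and the groups overlapped over most of their range. The means were 16.8 ± 5.02 FPKM (SD, n = 5) and 18.8 ± 3.93 FPKM (SD, n = 4), a log2 fold change of 0.18 ± 0.23 (SE; 95% interval -0.34 to 0.71; limma adjusted p = 0.669). The gene lies on chromosome 14, 56059629 to 56062313 on the minus strand (GRCm38).

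Cma1, the chymase gene most like the human one and a neighbour of Mcpt4 in the protease cluster of chromosome 14 (55941451 to 55944675), showed the same order of libraries at its ends. Its level was 12.8, 10.6, 5.21, 12.1 and 10.8 FPKM in WT 1 to 5. In Apoe_KO 1 to 4 it was 8.27, 10.8, 10.1 and 14.6 FPKM, so that WT 3 was again lowest and Apoe_KO 4 highest. The log2 fold change was 0.11 ± 0.24 (SE; 95% interval -0.42 to 0.64; limma adjusted p = 0.814).

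Cpa3, which trims peptides from their carboxyl end after the chymases have cut, gave 13.04, 9.77, 5.46, 9.93 and 12.04 FPKM in WT 1 to 5. The Apoe_KO libraries gave 7.73, 8.81, 8.33 and 12.4 FPKM in order. The lowest library was WT 3 and the highest WT 1, and 3 of the 4 Apoe_KO libraries lay below all WT libraries but WT 3. The means were 10.05 ± 2.92 FPKM (SD, n = 5) in WT and 9.31 ± 2.08 FPKM (SD, n = 4) in Apoe_KO, a log2 fold change of -0.07 ± 0.22 (SE; 95% interval -0.56 to 0.42; limma adjusted p = 0.87). Cpa3 spans chromosome 3, 20215620 to 20242181. The microRNA gene Mir7007 overlaps it on the same strand, and reads of Mir7007 could not be told apart from those of Cpa3.

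Tpsb2, the main tryptase of these cells, was at 13.9, 11.97, 6.58, 12.9 and 13.9 FPKM in WT 1 to 5. Its level in Apoe_KO 1 to 4 was 9.52, 11.5, 10.5 and 17.3 FPKM, with WT 3 lowest and Apoe_KO 4 highest. The difference was 0.05 ± 0.23 on the log2 scale (SE; 95% interval -0.46 to 0.55; limma adjusted p = 0.919). Its paralog Tpsab1, named here for that reason, was between 0.0254 and 0.449 FPKM, and reads may be split between the pair.

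Kit and Ms4a2, the receptors, were less abundant per length than the proteases. Kit was at 3.08, 2.76, 1.61, 2.82 and 1.83 FPKM in WT 1 to 5 and 2.07, 1.93, 2.14 and 3.21 FPKM in Apoe_KO 1 to 4. WT 5, which was among the higher libraries for Mcpt4 and Tpsb2, was the second lowest for Kit. The log2 fold change of Kit was -0.03 ± 0.16 (SE; 95% interval -0.39 to 0.34; limma adjusted p = 0.935). Ms4a2 was at 0.396, 0.397, 0.113, 0.112 and 0.287 FPKM in WT and 0.109, 0.0383, 0.189 and 0.368 FPKM in Apoe_KO, which are 2 to 22 reads. At this depth its genotypes could not be separated, with a log2 fold change of -0.10 ± 0.11 (SE; limma adjusted p = 0.692, no filter) and a two-sided exact permutation p of 0.349. For so low a gene the size depends on the pseudocount: it was -0.43 with a pseudocount of 0.1 and -0.71 with voom (limma adjusted p = 0.688 and 0.598). An exact test over the 126 divisions of the 9 libraries cannot give a p below 0.0159.

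The 5 more abundant mast cell markers varied between libraries to nearly the same degree. Their coefficients of variation were 24.6% to 25.5%, against 5.02% to 6.8% from counting error alone, which covers read sampling only. The summed level of the 4 proteases ran from 26.3 FPKM in WT 3, or 651 reads, to 68.0 FPKM in Apoe_KO 4, or 1625 reads. WT 3 was lowest for 5 of the 6 mast cell markers, and Apoe_KO 4 was highest for 4 of the 6. The mean of the 6 markers on the log2 scale, relative to its mean over all libraries, was 0.29, 0.06, -0.60, 0.07 and 0.12 in WT 1 to 5. In Apoe_KO 1 to 4 it was -0.21, -0.04, -0.08 and 0.38, so that WT 3 lay below every Apoe_KO library and WT 1 above 3 of them. In a bulk sample, fewer mast cells and less of these transcripts per cell cannot be told apart.

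**Figure D2:**
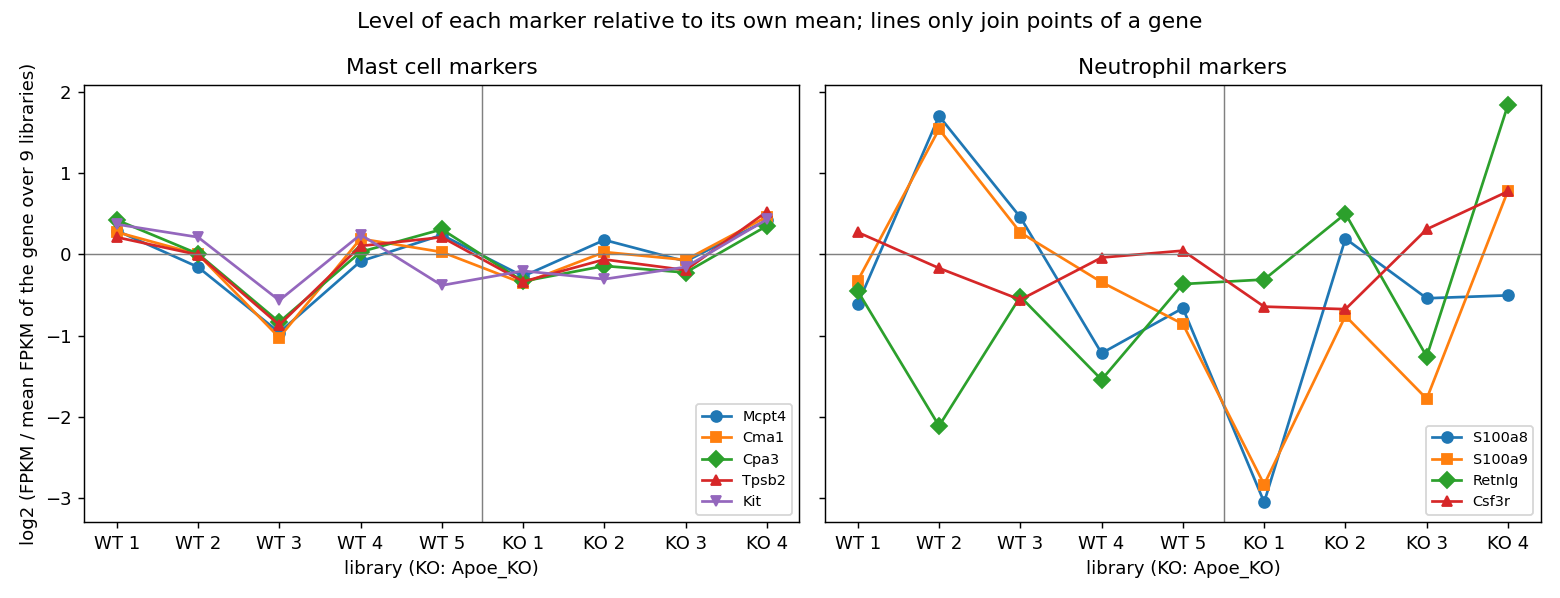
Level of each marker in each library as log2 of its FPKM over its own mean in 9 libraries, for 5 mast cell markers (left) and 4 neutrophil markers (right); lines only join the points of a gene, and the vertical line separates WT from Apoe_KO. The 4 proteases lie close together, Kit departs from them in WT 5, and all 5 are low in WT 3. Among the neutrophil markers S100a8 and S100a9 peak in WT 2 and Retnlg in Apoe_KO 4.

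Across the 9 libraries the 6 pairs of proteases had a Pearson r of 0.92 to 0.97 on log2(FPKM + 1). These points share library, depth and dissected tissue, and r is given as a description. Without the 2 libraries farthest from the median of the first gene of a pair, r was 0.66 to 0.95. Kit followed the 4 proteases less closely, with r of 0.57 to 0.78, and -0.04 to 0.60 without the 2 farthest libraries. Ms4a2, near its detection limit, gave 0.46 to 0.68.

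A search over 13382 tested genes placed Rnaseh2b, a subunit of an RNA-DNA hybrid nuclease, first in likeness to Cpa3, with an r of 0.963 over the 9 libraries. Tpsb2 followed at 0.958, then Nub1 at 0.928, Acsl4, a fatty acid ligase that prefers arachidonate, at 0.927, and the amino acid transporter Slc7a8 at 0.922. Mcpt4 ranked 7 and Cma1 ranked 9. Kit ranked 385. Nub1 ranged only from 10.3 to 11.9 FPKM, so a high r over 9 libraries came with a small change in level there.

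The proportions among the proteases within a library varied less than their levels. Over the 9 libraries the ratio of Mcpt4 to Cma1 ran from 1.38 to 1.94, that of Cpa3 to Cma1 from 0.814 to 1.12 and that of Mcpt4 to Tpsb2 from 1.29 to 1.74. The ratio of Cpa3 to Mcpt4 is given in full because its groups did not overlap, which was noticed after the values had been seen. It was 0.601, 0.616, 0.6, 0.596 and 0.576 in WT 1 to 5, although the level of both genes differed more than 2-fold between these libraries. In Apoe_KO 1 to 4 it was 0.524, 0.440, 0.498 and 0.521, below every WT library. The log2 difference was -0.27, with an SD of 0.03 in WT and 0.12 in Apoe_KO, where counting error alone gives an SD of 0.12 in a library. The WT ratios thus agreed more closely than counting error alone gives on average, and the lack of overlap rests in part on that. The two-sided exact permutation p was 0.0159, unadjusted and the smallest this design allows. Any groups of 5 and 4 libraries that do not overlap give this p, so it only restates why the ratio was chosen. The ratio was 1 of 10 computed among Mcpt4, Cma1, Cpa3, Tpsb2 and Kit and the only one whose groups did not overlap. Cpa3 over Tpsb2 differed by -0.13 (exact permutation p = 0.0794) and Cpa3 over Cma1 by -0.20 (exact permutation p = 0.127). Of 13266 tested genes above 0 in every library, 3.15% had a ratio to Mcpt4 whose groups did not overlap, and neither Cpa3 nor Mcpt4 passed the test on its own.

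**Figure D3:**
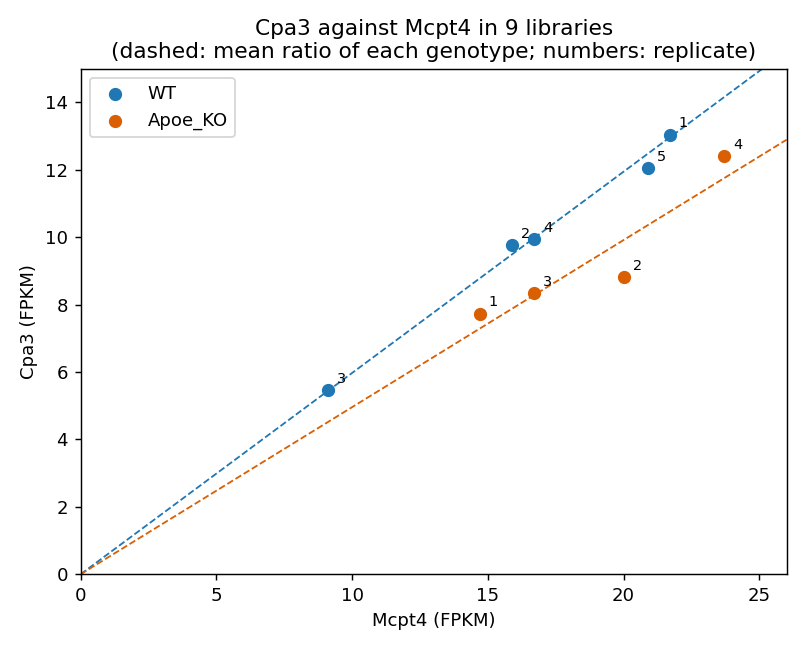
Cpa3 against Mcpt4, both in FPKM, in the 5 WT (blue) and 4 Apoe_KO (orange) libraries; dashed lines run through 0 with the mean ratio of each genotype. The WT libraries lie along 1 line from WT 3 to WT 1, with ratios of 0.576 to 0.616, closer than counting error alone gives on average. The 4 Apoe_KO libraries lie below that line at 0.440 to 0.524.

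Beyond the 6 markers, 24 further mast cell genes were found, of which 14 were tested. Mitf, a transcription factor that mast cells share with melanocytes and other cells, and Slc45a3, a sugar transporter, rose, none fell and 12 did not pass. Mitf was at 2.89 ± 0.53 FPKM (SD, n = 5) in WT and 4.61 ± 0.579 FPKM (SD, n = 4) in Apoe_KO, a log2 fold change of 0.53 ± 0.11 (SE; limma adjusted p = 0.0238). Slc45a3 was at 2.29 to 4.04 FPKM in WT and 4.79 to 8.12 FPKM in Apoe_KO, a log2 fold change of 0.81 ± 0.16 (SE; limma adjusted p = 0.0179). For both genes the WT and Apoe_KO libraries did not overlap, as for 9.86% of the 19960 genes with at least 0.1 FPKM in 4 libraries. Over all tested genes 7.35% passed the threshold, 3.43% higher in Apoe_KO. Gm15531 overlaps Mitf antisense and Gm29103 overlaps Slc45a3 on the same strand, and their reads were not separated. The Mitf call was lost in 8 of 20 alternative fits, among them those without WT 2, WT 4, Apoe_KO 1, Apoe_KO 3 or Apoe_KO 4, with an adjusted p of up to 0.0937 in limma. That of Slc45a3 was lost in 3 of 20, among them the fit without Apoe_KO 3 (limma adjusted p = 0.0594). The median log2 fold change of the 14 was 0.1, beside -0.07 for all tested genes.

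Some genes that define these cells more narrowly were low, and those named were chosen after their values had been seen. Mrgprb2, the receptor for basic secretagogues on connective tissue mast cells, was at 0.0778 to 0.793 FPKM, and Fcer1a, the IgE-binding chain of the receptor that Ms4a2 belongs to, at 0.319 to 2.02 FPKM. By contrast, Slc18a2 had the highest mean of the 24 further mast cell genes, 32.98 FPKM, and ran from 9.1 to 80.8 FPKM. Like the proteases it was lowest in WT 3, but it was at only 12.02 FPKM in Apoe_KO 4, where the summed proteases were highest. Mcpt8, which marks basophils, was at 0 in 7 of 9 libraries with at most 3 reads. Other genes of the basophil list had reads in all 9 libraries. Cd200r3 had only 1 to 8 reads and Prss34 had 2 to 13. Itga2 was at 1.15 to 2.43 FPKM and Il3ra at 1.43 to 2.43 FPKM, and which cells supplied these transcripts was not tested. Basophils also hold Cpa3, and their part in its level was not tested. Of the 8 basophil genes, Gata2 and Cpa3 had the highest mean levels, 5 were tested and 0 passed, with 1 at an unadjusted p under 0.05 in limma and 0 called by voom. Gata2 was at 7.90 ± 2.03 FPKM (SD, n = 5) in WT and 5.48 ± 0.952 FPKM (SD, n = 4) in Apoe_KO (limma adjusted p = 0.146).

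Among 17 growth and activation signals of mast cells, 13 were tested, with a median log2 fold change of -0.06. Of these 0 rose and 1 fell, where 3.92% of all tested genes were called lower. That 1 was Stat5a, a transcription factor activated downstream of Kit and many cytokine receptors, at 5.32 to 7.05 FPKM in WT and 2.92 to 4.48 FPKM in Apoe_KO, with a log2 fold change of -0.56 ± 0.11 (SE; limma adjusted p = 0.0167). The call was lost in 2 of 20 alternative fits, 1 of them without both WT 2 and Apoe_KO 4 (limma adjusted p = 0.0653). Stat3 overlaps Stat5a antisense, and their reads were not separated. Kitl, the stem cell factor that binds Kit, was at 15.3 to 20.8 FPKM over the 9 libraries. Syk and Btk, kinases of the IgE receptor pathway that B cells also use, were highest in WT 2 and Apoe_KO 4, at 9.49 and 16.5 FPKM for Syk and 6.13 and 7.59 FPKM for Btk. Kitl, Syk and Btk were named after their values had been seen, and the part of lymphocytes in the levels of Syk and Btk was not tested.

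Of the neutrophil markers, S100a8, S100a9 and Retnlg had 2 to 72 reads in a library and Csf3r had 40 to 108. S100a8 was at 0.802, 3.98, 1.68, 0.527 and 0.774 FPKM in WT 1 to 5 and 0.148, 1.40, 0.842 and 0.863 FPKM in Apoe_KO 1 to 4. WT 2 was highest with 47 reads, and Apoe_KO 1 lowest with 2 reads. The log2 fold change was -0.40 ± 0.35 (SE; 95% interval -1.19 to 0.40; limma adjusted p = 0.674, no filter; two-sided exact permutation p = 0.429). Leaving out 1 library gave -0.55 (without Apoe_KO 2) to -0.12 (without WT 2), a pseudocount of 0.1 gave -0.76 and voom -0.83.

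S100a9, the partner of S100a8, was at 2.23, 8.11, 3.36, 2.20 and 1.54 FPKM in WT 1 to 5. In Apoe_KO 1 to 4 it was at 0.392, 1.65, 0.814 and 4.80 FPKM. WT 2 was again highest, with 72 reads, and Apoe_KO 4 followed with 46. The means of 3.49 ± 2.67 FPKM (SD, n = 5) and 1.91 ± 1.99 FPKM (SD, n = 4) gave a log2 fold change of -0.69 ± 0.47 (SE; 95% interval -1.73 to 0.36; limma adjusted p = 0.399). It was -0.39 without WT 2, -0.41 without Apoe_KO 1, -1.09 without Apoe_KO 4, -1.11 with a pseudocount of 0.1 and -1.15 with voom, and the adjusted p stayed above the threshold in each of these fits.

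Retnlg went another way. It was at 0.915, 0.290, 0.873, 0.430 and 0.972 FPKM in WT 1 to 5, and WT 2, the highest library for the S100 pair, was the lowest with 3 reads. Its level in Apoe_KO 1 to 4 was 1.01, 1.77, 0.524 and 4.48 FPKM, so that 3 of 4 lay above every WT library and Apoe_KO 4 was highest, with 49 reads. The log2 fold change was 0.64 ± 0.33 (SE; 95% interval -0.11 to 1.40; limma adjusted p = 0.458, no filter), with a two-sided exact permutation p of 0.111. It was 0.29 without Apoe_KO 4, 0.9 without Apoe_KO 3, 1.08 with a pseudocount of 0.1 and 1.1 with voom.

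Csf3r, the receptor, varied least of the 4. It was at 1.15, 0.847, 0.647, 0.927 and 0.983 FPKM in WT 1 to 5 and 0.610, 0.597, 1.18 and 1.63 FPKM in Apoe_KO 1 to 4, or 40 to 108 reads. Apoe_KO 4 was highest and Apoe_KO 2 lowest, with the WT libraries between. The log2 fold change was 0.04 ± 0.16 (SE; limma adjusted p = 0.92, no filter), with a two-sided exact permutation p of 0.857.

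**Figure D4:**
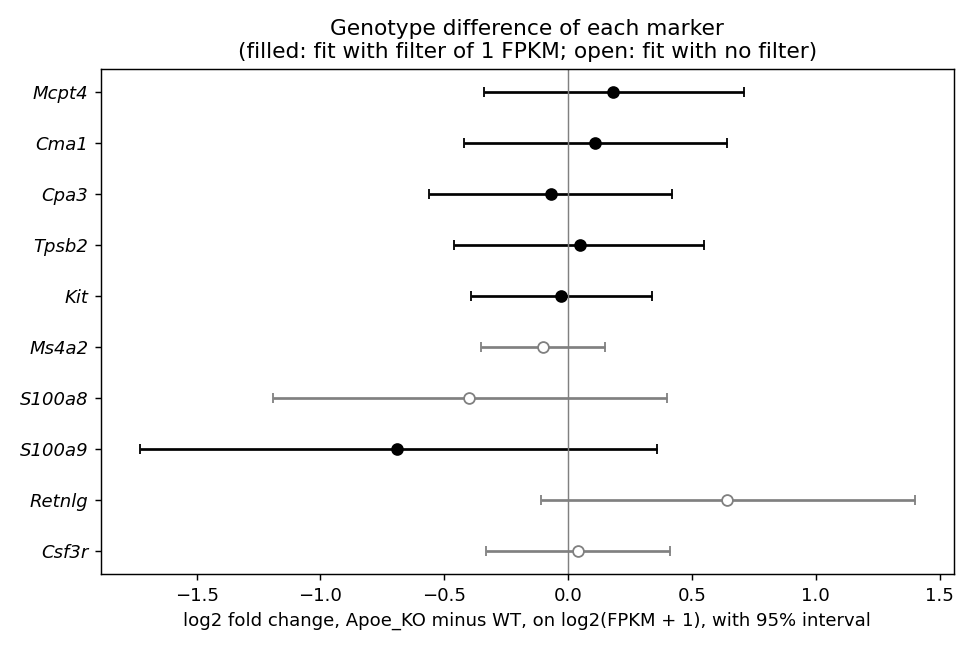
Log2 fold change of each marker, Apoe_KO minus WT, on log2(FPKM + 1), with its 95% interval from limma; filled points are from the fit of genes that reached 1 FPKM in at least 4 libraries and open points from the fit with no filter. Every interval crosses 0; S100a9 has the widest, from -1.73 to 0.36, and the 4 proteases lie between -0.07 and 0.18.

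The coefficients of variation were 92.02% for S100a8, 85.8% for S100a9, 103% for Retnlg and 35.2% for Csf3r, against 25.4%, 19.4%, 26.6% and 12.5% from counting error. S100a8 and S100a9 were the closest pair, with a Pearson r of 0.79 over 9 libraries as a description, but 0.20 without the 2 libraries farthest from the median of S100a8. Retnlg had an r of -0.22 with S100a8, and Csf3r one of -0.12. Over all 6 pairs of the neutrophil markers the median r was 0.18, where the lowest of the 6 protease pairs had 0.92.

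Of 37 further neutrophil genes above 0 in any library, 6 were highest in WT 2 and 10 in Apoe_KO 4, with 0 to 6 highest in each of the other 7 libraries. The genes named next were chosen after their values had been seen. Ngp, a secondary granule protein, was at 4.09 FPKM (85 reads) in WT 2 and at most 15 reads elsewhere, and Camp, the cathelicidin of the same granules, had 22 reads in WT 2 and at most 4 elsewhere. Ltf, lactoferrin, was also highest in WT 2, with 40 reads. Other granule genes did not follow: Lcn2, lipocalin, was lowest in WT 2 with 52 reads and highest in Apoe_KO 4 with 230, Mmp8, the neutrophil collagenase, was at 0 in WT 2, and Elane, the elastase of early granules, had 5 reads in WT 2 and 21 in WT 4. Cxcr2, the chemokine receptor of mature neutrophils, had 56 reads in WT 2, 125 in Apoe_KO 4 and at most 9 in the other 7 libraries. Ly6g, the defining surface antigen of mouse neutrophils, was at 0 in 5 of 9 libraries, WT 2 and Apoe_KO 4 among them, and at most 4 reads in the others. Mpo, the peroxidase of early granules, was at 0 in 6 libraries and Stfa1 in all 9.

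**Figure D5:**
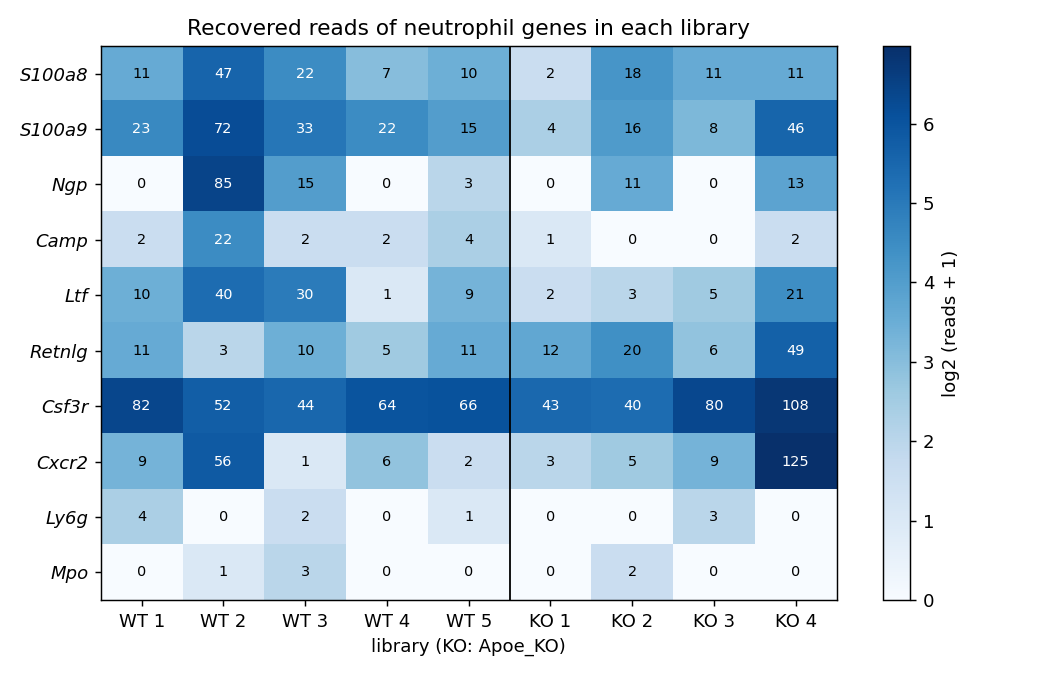
Recovered reads of 10 neutrophil genes (rows) in each of the 9 libraries (columns), shaded by log2(reads + 1), with the black line between WT and Apoe_KO. The rows are the 4 neutrophil markers and further genes chosen after their values had been seen. Lcn2, Mmp8 and Elane, which did not peak in WT 2, are not shown. WT 2 has the highest reads of S100a8, S100a9, Ngp, Camp and Ltf, Apoe_KO 4 has those of Retnlg, Csf3r and Cxcr2, and Ly6g stays at 4 reads or fewer.

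WT 2 and Apoe_KO 4 were also the libraries rich in lymphocyte transcripts. Ighm, the immunoglobulin mu chain, was at 252 FPKM in WT 2 and 226 FPKM in Apoe_KO 4 and at most 30.6 FPKM in the others. The summed level of the 9 B and plasma cell genes ran from 24.9 to 511 FPKM in WT and from 15.7 to 424 FPKM in Apoe_KO. The part of these cells in the levels of the neutrophil markers was not tested. Without both libraries, S100a9 had a log2 fold change of -0.80 (limma adjusted p = 0.121) and Retnlg one of 0.19 (limma adjusted p = 0.71, no filter).

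The gene most like S100a8 over the 9 libraries was Slc35g1, a membrane transporter, with an r of 0.945 among 13383 tested genes. The next were Rpl23a, a ribosomal protein, at 0.896, Cox6a2, a muscle cytochrome oxidase subunit, at 0.892, the mitochondrial ribosomal RNA mt-Rnr1 at 0.891 and the noncoding gene Gm26917 at 0.877. Slc35g1, Rpl23a, mt-Rnr1 and Gm26917 were all highest in WT 2, where mt-Rnr1 reached 2598 FPKM against a mean of 871 FPKM. S100a9 ranked 53. How residual ribosomal RNA bears on the level of S100a8 in WT 2 was not tested.

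Of 38 further neutrophil genes found, 9 were tested, 0 rose and 1 fell, and 20 were below 1 FPKM in every library. Over all tested genes 3.92% were called lower. The median log2 fold change of the 9 was -0.25. The 1 that fell was G0s2, an inhibitor of fat breakdown that is abundant in adipocytes as well as in neutrophils, at 58.5 to 116 FPKM in WT and 38.7 to 56.6 FPKM in Apoe_KO. Its log2 fold change was -0.79 ± 0.21 (SE; limma adjusted p = 0.0481), and the call was lost in 15 of 21 alternative fits, among them those without any 1 of WT 1 to 4 or of Apoe_KO 1, 3 and 4, with an adjusted p of up to 0.138. Adipocyte genes moved the same way: Lep fell by 1.74 (limma adjusted p = 0.0276) and Plin1 by 0.56 (limma adjusted p = 0.0466) on the log2 scale, 2 of the 6 tested, and the summed level of that list was 1176 to 1879 FPKM in WT and 956 to 1847 FPKM in Apoe_KO. The Lep call was lost in 6 of 21 alternative fits (without WT 1, 2 or 4 or Apoe_KO 3, limma adjusted p of up to 0.085) and the Plin1 call in 14 of 21 (without any library other than Apoe_KO 2, limma adjusted p of up to 0.128). The part of adipocytes in the level of G0s2 was not tested. Lamb3 overlaps G0s2 antisense, and their reads were not separated.

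The signals that draw and expand neutrophils gave 0 calls in either direction among the 8 tested of 17 found, with 1 at an unadjusted p under 0.05 in limma, 0 called by voom and a median log2 fold change of 0.21. Cxcl12, which retains neutrophils in the marrow, was at 35.6 ± 2.20 FPKM (SD, n = 5) in WT and 30.6 ± 2.88 FPKM (SD, n = 4) in Apoe_KO (limma adjusted p = 0.117), and the adhesion molecule Icam1 was at 8.78 ± 2.19 and 10.1 ± 2.75 FPKM (SD, n = 5 and n = 4; limma adjusted p = 0.611).

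Csf3, the ligand of the receptor encoded by Csf3r, was too low to be tested in that list and was singled out after its values had been seen. It was at 0 reads in all 5 WT libraries, and at 1, 19, 8 and 24 reads in Apoe_KO 1 to 4, or 0.0362, 0.724, 0.301 and 0.925 FPKM. Against a floor of 3 reads over the whole WT group, the 52 reads of Csf3 in Apoe_KO were at least 21.5-fold higher relative to depth. Of 30432 genes above 0 in any library, 12 or 0.0394% were at 0 in every WT library and above 0 in every Apoe_KO library, and 22 genes showed the reverse. The two-sided exact permutation p for Csf3 was 0.0159, the smallest possible. Groups that do not overlap always give this p, so it only restates the pattern for which the gene was singled out. Csf3 did not pass in limma with no filter (adjusted p = 0.163; 0.0474 without Apoe_KO 1). Il6, an inflammatory cytokine of the same list that was likewise named after its values had been seen, was also high in Apoe_KO 2 and Apoe_KO 4, at 7.12 and 5.21 FPKM, with 1.22 FPKM in Apoe_KO 3. It was at 0.0422 FPKM in Apoe_KO 1 and at most 0.819 FPKM in WT, so its groups overlapped (two-sided exact permutation p = 0.111). Other cytokines of that list, named in the same way, were mixed. Cxcl1 was highest in Apoe_KO 2 (7.56 FPKM) and Il1b in Apoe_KO 4 (0.714 FPKM). Cxcl2 was highest in WT 5 (1.71 FPKM) and Tnf in WT 2 (0.395 FPKM).

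Other cell types that could supply the 10 transcripts were read from their own markers. Eosinophil genes gave 0 calls, with 1 of 7 tested: Ear2 was at 8.69 ± 3.88 FPKM (SD, n = 5) and 5.86 ± 1.09 FPKM (SD, n = 4), and Prg2, the major basic protein, was below the filter at 0 to 1.56 FPKM, with 19 reads in WT 2 and 24 in Apoe_KO 4. Epx, their peroxidase, named after its values had been seen, was at 0 in 8 libraries and had 6 reads in WT 3. Among 12 monocyte genes 10 were tested and 2 rose, Vcan, a proteoglycan, by 0.37 (limma adjusted p = 0.00849) and Cd14, the endotoxin co-receptor, by 1.2 on the log2 scale (limma adjusted p = 0.0238). Gm4117 and Gm16318 overlap Vcan antisense, and their reads were not separated. Of the 10 monocyte genes tested, 4 had an unadjusted p under 0.05 in limma and voom called 2, with a median log2 fold change of 0.23. Among 12 macrophage genes 10 were tested and 1 rose, Lyve1, a receptor of resident macrophages and lymphatic endothelium, by 0.81 (limma adjusted p = 0.0196). Of these 10, 6 had an unadjusted p under 0.05 in limma and voom called 2, with a median log2 fold change of 0.29. Over all tested genes 3.43% were called higher. The Cd14 call was lost in 6 of 21 alternative fits, among them those without WT 1, WT 4, Apoe_KO 3 or Apoe_KO 4 (limma adjusted p of up to 0.0922). That of Lyve1 was lost in 4 of 21, among them the fit without Apoe_KO 3 (limma adjusted p = 0.065), and that of Vcan in 1 of 21. Monocytes also hold S100a8, S100a9 and Csf3r, and the summed monocyte list was 588 to 833 FPKM in WT and 690 to 1157 FPKM in Apoe_KO. Fn1, at 245 to 365 FPKM, and Lyz2, at 167 to 574 FPKM, were the highest genes of that list. Which cells of the aorta supplied Fn1, Vcan and the rest of that sum was not tested, so the sum is not a measure of monocytes alone. Ccr2, Ly6c2 and Cx3cr1 were lower in Apoe_KO 1 to 3 than in every WT library. Ccr2 was at 1.14 to 1.34 FPKM there and at 1.79 to 3.84 FPKM in WT. In Apoe_KO 4 these genes lay within the WT range. All of these were named after their values had been seen. The part of monocytes in the levels of S100a8, S100a9 and Csf3r was not tested.

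Kit is also made by melanocytes, and S100a8 and S100a9 by stressed epithelium. Of the 6 melanocyte genes, 1 was tested and 0 passed: Sox10, which glia also express, was at 6.75 ± 0.914 FPKM (SD, n = 5) and 4.45 ± 1.45 FPKM (SD, n = 4; limma adjusted p = 0.0758), and Pmel was below 1 FPKM in every library. For the 6 epithelial genes the corresponding count was also 1 tested and 0 passed, with Krt18 at 4.16 ± 0.747 and 2.95 ± 0.662 FPKM (SD, n = 5 and n = 4; limma adjusted p = 0.123). Erythrocyte genes, a measure of blood in the tissue, gave 0 calls among 5 tested, with Hbb-bs at 72.7 to 539 FPKM in WT and 19.3 to 208 FPKM in Apoe_KO. The summed erythrocyte list was lowest in Apoe_KO 1, as were S100a8 and S100a9. It was highest in WT 1, where S100a8 was at 0.802 and S100a9 at 2.23 FPKM. WT 2, the highest library for S100a8 and S100a9, had the lowest Hbb-bs of the WT libraries, at 72.7 FPKM. The part of blood in the levels of S100a8 and S100a9 was not tested. Platelet genes (5 tested), B and plasma cell genes (4) and T and NK cell genes (3) also gave 0 calls. In limma 1 melanocyte, 1 epithelial and 1 erythrocyte gene had an unadjusted p under 0.05, and 0 eosinophil, platelet, B and plasma or T and NK cell genes did, while voom called 0 genes in all these lists. Pf4, a platelet chemokine, was at 24.9 ± 3.45 FPKM (SD, n = 5) in WT and 27.6 ± 2.44 FPKM (SD, n = 4) in Apoe_KO.

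Smooth muscle genes, which mark the media of the wall, gave 0 calls among 6 tested, with Acta2 at 4009 ± 285 FPKM (SD, n = 5) and 4222 ± 472 FPKM (SD, n = 4). Adventitial fibroblast genes also gave 0 of 6, with 3 at an unadjusted p under 0.05 in limma against 2 of the smooth muscle genes and 0 of either called by voom. Among 6 endothelial genes Kdr fell by 0.58 on the log2 scale (limma adjusted p = 0.0184; 0.0641 without Apoe_KO 3), where 3.92% of all tested genes were called lower. Fat around the vessel, where connective tissue mast cells also lie, differed between libraries. Ucp1, the uncoupling protein of brown fat and chosen after its values had been seen, was at 456 FPKM in WT 3, the library lowest in mast cell markers, and at 459 FPKM in Apoe_KO 2, where the mean mast cell level was -0.04. In the other 7 libraries Ucp1 was at 146 to 338 FPKM. The part of surrounding fat in the mast cell levels was not tested.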

How the data were processed

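Total RNA of mouse aorta was sequenced after removal of ribosomal RNA, per the labels' protocols, although the labels also list the molecule as polyA RNA. The authors deposited 1 table of FPKM values. The genome build GRCm38 and limma are named in the submitters' processing notes, with no version or role; for aligner, counting, strandedness and annotation the sources used here give nothing. Antisense genes can therefore not be separated. Of 33293 identifiers, 33240 were named through GENCODE M21. Mcpt1, Mcpt2, Mcpt9, Il9, Il17a, Mrgpra2a and Mrgpra2b were not analysed here. FPKM times exon length gave whole reads at 1 depth per library (17002983 to 19765430 reads), used for counting error and for voom.

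Genotype was tested with limma 3.58.1 (R 4.3.3, trend, robust) on log2(FPKM + 1) in all 9 libraries with no other covariate. Two-sided exact permutation tests (scipy 1.17.1) were used for single values. The limma procedure was also run on simulated data. Only well-covered genes were changed there, at a smaller spread between libraries than that of the markers. It therefore does not show what the tests could detect for the markers, least of all those with few reads. The alternatives were leaving out each library, WT 2 with Apoe_KO 4, a pseudocount of 0.1, no filter or a filter of 0.1 or 10 FPKM, a replicate block, library weights, voom, and scaling by library medians or quantiles. The markers and the 18 lists beside them were chosen with earlier results of these data known. Named genes were all 10 markers, up to 4 called genes of each list, or else the 2 of highest mean, the 5 most like Cpa3 and S100a8, and Apoe; others are said to be chosen after their values were seen. Promoter windows of 250 bases came from RefSeq for 9 of the 10 markers.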

Additional observations from a re-analysis of the deposited data

Results flagged for a closer look

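In 82 groups of libraries, from 41 named genes, 11 held a library whose distance to the nearest other exceeded Dixon's 95% limit for the range of its group; chance gives about 1 in 20 such groups. Of these, 3 were markers. Tpsb2 was at 6.58 FPKM in WT 3, where the next WT library had 11.97 FPKM. Kit was at 3.21 FPKM in Apoe_KO 4, with the next at 2.14 FPKM. S100a9 was at 8.11 FPKM in WT 2, with the next at 3.36 FPKM. The other 8 were lymphocyte genes in WT 2 and Apoe_KO 4. Ighm was at 252 and 226 FPKM, Cd79a at 54.2 and 65.1 FPKM, Trbc2 at 24.3 and 23.9 FPKM, and Cd4 at 6.04 and 9.59 FPKM in these libraries.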

How the results depend on the processing

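Over 195 alternative values of the 10 markers, 0 passed the threshold, and 21 changed sign. Leaving out each library in turn gave log2 fold changes of -0.01 to 0.29 for Mcpt4, -0.09 to 0.22 for Cma1, -0.25 to 0.03 for Cpa3, -0.13 to 0.14 for Tpsb2, -0.14 to 0.04 for Kit and -0.10 to 0.14 for Csf3r. Without WT 3, Mcpt4 was at -0.01, Cma1 at -0.09, Tpsb2 at -0.13 and Csf3r at -0.01. Cpa3 was at 0.03 without WT 1. Without Apoe_KO 4, Cma1 was at -0.03, Tpsb2 at -0.12 and Csf3r at -0.10, and Csf3r was at -0.01 without Apoe_KO 3. Kit was at 0.04, 0.01 and 0.02 without WT 1, 2 and 4, and at 0.01 and 0.03 without Apoe_KO 1 and 2. Without both WT 2 and Apoe_KO 4, Cma1 was at -0.01, Tpsb2 at -0.11 and Csf3r at -0.11. Library weights gave -0.02 for Cma1 and -0.11 for Tpsb2. Kit was at 0.04 with median centring and 0.08 with quantile normalization. The cause was not tested.

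Of 54 alternative library levels 53 moved by less than the spread within their group; the neutrophil level of Apoe_KO 1 went from -0.58 to -1.14 with a pseudocount of 0.1. The ratio of Cpa3 to Mcpt4, whose 12 alternatives were chosen after seeing the data, kept a log2 difference of -0.30 to -0.22 with no overlap of the groups.

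Over all genes, 459 were called higher and 524 lower. Leaving out 1 library gave 205 to 576 higher and 178 to 683 lower. With no filter 247 and 198 were called, with library weights 702 and 1055, and without WT 2 and Apoe_KO 4 203 and 174. Lower calls were 220 with a filter of 10 FPKM, 269 with median centring and 240 with quantile normalization. Voom called 470 and 547. Replicate numbers did not pair the libraries: the correlations of same-numbered libraries were 0.26, -0.27, -0.13 and -0.22, and 0 of 4 correlated best with their own number. The replicate block gave 121 higher and 62 lower calls. Ms4a2, S100a8 and Retnlg rest on 2 to 49 reads in a library, which limits what their tests could detect.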
